A study of Rattus norvegicus with 6 samples.

Results

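Genes of fatty acid oxidation and targets of the nuclear receptor PPAR-alpha were followed as a set of 37 genes on 6 rat arrays. Members were chosen by gene symbol in the authors' deposited table, with 1 probe for each gene, that with the highest mean of the authors' 6 values. All 37 genes had a probe, of 19956 genes in all. The set holds 3 regulators and hormones, 4 genes of fatty acid uptake, binding and activation, 5 genes of the carnitine shuttle, 11 of mitochondrial beta-oxidation, 5 peroxisomal genes, 1 ketogenic gene, 3 acyl-CoA thioesterases and 5 other PPAR-alpha targets.

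The study compared iron deprivation with an iron-replete state in 3 settings. Liver and kidney came from Wistar rats fed an AIN-93G diet without iron or the same diet with iron for 4 weeks. FAO cells, a rat liver cell line derived from a hepatoma, were exposed for 24 hours to 100 µM deferoxamine (DFO), an iron chelator, or to the carrier solution alone, the group titled untreated. In parts of the labels the animals are called mice, while organism, strain and array are those of the rat. The RNA of 6 animals or 3 cultures was pooled before hybridisation, so that each group was 1 array, differences have no replicate check, and no p-value was computed. The spread between animals or cultures was not measured.

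Levels are scaled signals in arbitrary units, comparable for 1 probe across arrays and not between probes. Differences are log2 of the iron-deprived over the iron-replete array, given with a spot standard error (SE) that covers only the noise between repeated spots on an array. A difference of at least 2-fold (log2 1) was counted as a call. Where only 1 of the 2 arrays was well above background, the difference is a bound, written as "at least". In it the dim array is given its lowest well-measured signal, or the probe's own where that is higher. Where the signal so given was not below that of the other array, as for Pdk4 in liver, the gene has no value. Tissue markers fitted the labels of liver, kidney and FAO cells, with 8 of 8 hepatocyte markers detected in both livers and both FAO arrays and in neither kidney, and 7 of 7 kidney tubule markers detected in both kidneys. The control liver array was the noisiest: 47 of its 264 blocks of spots were noisy, against 0 to 13 on the other 5 arrays, and 14 members with a liver value had a spot in such a block on 1 of the liver arrays.

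Fatty acids enter cells through carriers, are activated to acyl-CoA, cross the mitochondrial membrane bound to carnitine, and are shortened by repeated beta-oxidation. Very long chains are shortened in peroxisomes first, and in liver the acetyl-CoA that results feeds ketone body synthesis. PPAR-alpha, paired with RXR, binds direct repeats in the promoters of many of these genes and drives their transcription in fasting. The electrons of mitochondrial beta-oxidation pass through flavoproteins and an iron-sulfur enzyme to the respiratory chain.

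Promoters are shown for 3 members. Fabp1, the liver fatty acid binding protein, was the 1 member whose RefSeq window, 250 bases before to 50 after the start, held a direct repeat of the kind PPAR-alpha binds. Fgf21, a fasting hormone of the liver, had the lowest difference of the set in liver, and Plin2, a coat protein of lipid droplets, was among the 4 members called higher in FAO cells. Capitals mark, in Fabp1, the match to the direct repeat AGGNCANAGGNCA on the opposite strand, and in Fgf21 and Plin2 the matches to ACGTG, the core of the hypoxia response element, which overlap on the 2 strands. The table holds a further window for Plin2, at another start, with 0 matches to ACGTG, which is not shown. Sequences are from RefSeq, and all run from 5′ to 3′ on the gene's strand.
Fabp1, GRCr8, chr4:104749090-104749389, plus strand: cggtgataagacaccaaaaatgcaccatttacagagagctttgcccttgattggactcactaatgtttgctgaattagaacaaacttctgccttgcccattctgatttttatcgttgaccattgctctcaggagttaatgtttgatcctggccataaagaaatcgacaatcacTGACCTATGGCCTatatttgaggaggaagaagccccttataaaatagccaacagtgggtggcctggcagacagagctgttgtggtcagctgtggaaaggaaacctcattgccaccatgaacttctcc
Fgf21, GRCr8, chr1:105221327-105221626, minus strand: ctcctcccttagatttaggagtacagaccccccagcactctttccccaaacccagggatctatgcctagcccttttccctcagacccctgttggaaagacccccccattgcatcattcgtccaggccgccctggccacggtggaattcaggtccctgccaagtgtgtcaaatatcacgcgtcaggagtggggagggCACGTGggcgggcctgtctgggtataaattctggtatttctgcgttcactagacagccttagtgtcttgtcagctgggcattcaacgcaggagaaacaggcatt
Plin2, GRCr8, chr5:106228969-106229268, minus strand: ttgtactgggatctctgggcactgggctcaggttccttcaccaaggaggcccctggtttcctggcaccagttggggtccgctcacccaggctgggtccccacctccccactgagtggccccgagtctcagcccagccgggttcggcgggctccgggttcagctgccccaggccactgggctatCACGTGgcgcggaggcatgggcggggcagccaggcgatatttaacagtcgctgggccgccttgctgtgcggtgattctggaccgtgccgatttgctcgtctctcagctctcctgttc

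Of the 37 members, 32 had a promoter in the RefSeq table. The spaced repeat AGGNCANAGGNCA, searched on both strands, was found in 1 of the 32, against 0.415% of the 33469 promoters in the table. The half-site AGGTCA, which the first letters of the repeat can hold, was found in 8 of the 32, namely Acadvl, Acot12, Creb3l3, Eci2, Fabp1, Hadhb, Slc27a2 and Ucp3, against 16.2% of all promoters. None of the 7 members called lower in liver was among these 8. ACGTG was found in 7 of the 32, against 19.3% of all promoters, and in 1 of 3 members with a promoter that were called higher in FAO cells, 2 of 3 called lower there and 1 of 7 called lower in liver. A member was counted if any of its windows matched, while the shares of all promoters are per window, so the 2 rates differ in unit. These matches describe letters in a short window and do not show binding.

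In liver, the iron-free diet went with lower levels across the set. Of 33 members with a value, 29 were below 0 (87.9%, against 47.9% of all genes), 7 were at least 2-fold lower and 0 at least 2-fold higher. The median difference was -0.59, against 0.02 over all 10171 genes with a value. The 7 lower members were 21.2% of those measured, while 3.01% of all genes were called lower and 6.52% higher. Among the 21 members in the brightest of 4 signal quartiles, the median was -0.59. In that quartile the median of all genes was -0.12, and 62.4% of them were below 0. Without spots in noisy blocks, 7 of 33 members were again called lower and 0 higher, 29 were below 0 and the median was -0.52. Over 10 alternative ways of processing, the members lay -0.60 to -0.36 from the median of all genes, but the direction in itself depended on the scaling: when each array was scaled to the median of its own detected probes, the median of all genes moved to 0.59 and that of the members to 0.01.

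**Figure D1:**
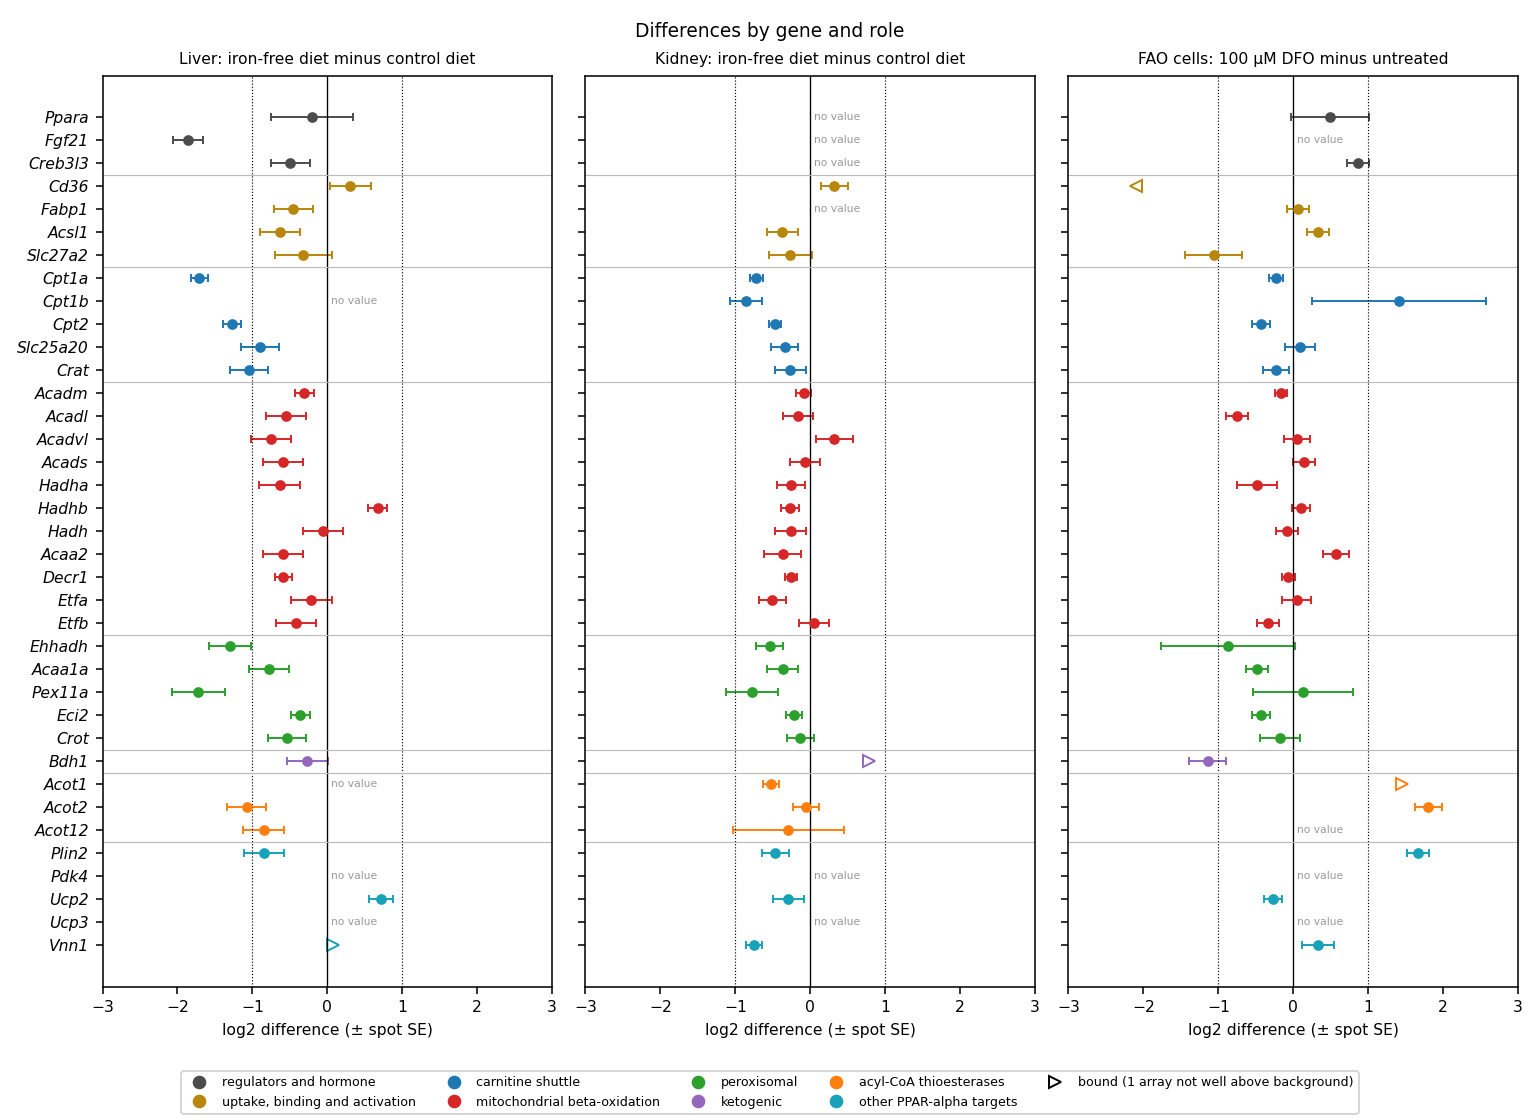
Differences of the 37 genes (rows, ordered by role) in liver, kidney and FAO cells, as log2 of the iron-deprived over the iron-replete array. Points are measured differences with the spot SE, open triangles are bounds and dotted lines mark 2-fold. The words "no value" mark genes well above background on neither array of a comparison, or on 1 array but without a bound (Pdk4 in liver). In liver 29 of 33 values lie below 0 and in kidney 27 of 31, while in FAO cells 17 of 33 do. Scaled to each array's own detected median, the median in liver would be 0.01.

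The 3 regulators and hormones were all below 0 in liver, with 1 called lower, against 3.01% of all genes. Fgf21 had a scaled signal of 121 in iron-free liver, against 441 in control liver, a difference of -1.86 ± 0.20. Its 10 spots in iron-free liver lay between 108 and 135, and its 9 used spots in control liver between 409 and 505, so the arrays did not overlap. The transcript was not well above background in either kidney or in FAO cells. Ppara itself, the receptor, had 128 in iron-free liver and 148 in control liver, a difference of -0.21 ± 0.54 that was smaller than its spot SE, and both of its spots in control liver lay in noisy blocks. Creb3l3, a liver transcription factor that acts on Fgf21 together with PPAR-alpha, had 24865 in iron-free liver and 35006 in control liver (-0.49 ± 0.27).

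The carnitine shuttle had the lowest median of the larger role groups in liver, at -1.16 over 4 measured members. All 4 were below 0 and 3 were called lower, against 3.01% of all genes. Each had control liver spots in noisy blocks: 4 of 10 used spots for Cpt1a, 2 of 9 for Cpt2, and 1 of 2 for Slc25a20 and for Crat. Without spots in noisy blocks the median of the shuttle was again -1.16. Cpt1a, the outer-membrane carnitine palmitoyltransferase that controls entry into mitochondria, had 1671 in iron-free liver and 5471 in control liver, a difference of -1.71 ± 0.11. All 10 spots in iron-free liver, up to 1823, lay below the lowest of the 10 spots in control liver, 3072. Cpt2, its inner-membrane partner, had 3413 in iron-free liver and 8253 in control liver (-1.27 ± 0.13). Here too the highest spot in iron-free liver, 3578, was below the lowest in control liver, 6164. Crat, carnitine acetyltransferase, had 1625 in iron-free liver and 3342 in control liver (-1.04 ± 0.25), and it was called lower under 6 of 10 alternatives. Slc25a20, the carnitine carrier of the inner membrane, had 2297 in iron-free liver and 4273 in control liver (-0.90 ± 0.25), just short of 2-fold.

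Mitochondrial beta-oxidation moved less in liver. Its 11 members had a median of -0.55, 10 were below 0 and 0 reached 2-fold in either direction. The acyl-CoA dehydrogenases, which take the first step for chains of different length, were at -0.75 ± 0.27 for Acadvl, -0.55 ± 0.27 for Acadl, -0.31 ± 0.13 for Acadm and -0.59 ± 0.27 for Acads. Acadvl, for example, had 10293 in iron-free liver and 17278 in control liver, and its spots on the 2 arrays lay apart. Among the later steps, Decr1, a reductase for unsaturated chains, was at -0.59 ± 0.12 and Acaa2, the mitochondrial thiolase, at -0.59 ± 0.27. Hadh, the dehydrogenase for short chains, was at -0.06 ± 0.27. Etfa and Etfb, the subunits of the flavoprotein that collects the electrons, were at -0.21 ± 0.27 and -0.42 ± 0.27.

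The 2 subunits of the trifunctional protein pointed opposite ways in liver. Hadha had 1820 in iron-free liver and 2823 in control liver (-0.63 ± 0.27), while its second probe, dimmer in liver, gave 0.33. Hadhb had 578 in iron-free liver and 362 in control liver (0.67 ± 0.13). The Hadhb spots in control liver ranged from 141 to 605 and overlapped those in iron-free liver, 514 to 621, and without spots in noisy blocks the Hadhb difference was 0.43. The unequal change of the subunits thus rested on probes whose spots overlapped (Hadhb) or that pointed both ways (Hadha).

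Peroxisomal members were lower by more than the mitochondrial ones at the median, -0.78 against -0.55, and 2 of 5 were called, against 3.01% of all genes. The wider lists had the reverse order in liver, with medians of -0.30 for other peroxisomal and -0.36 for other mitochondrial genes. Pex11a, which divides peroxisomes and is a classical PPAR-alpha target, had 1538 in iron-free liver and 5064 in control liver (-1.72 ± 0.36), read from 1 spot on each array. Ehhadh, the peroxisomal bifunctional enzyme, had 1006 in iron-free liver and 2476 in control liver (-1.30 ± 0.28), and its 2 spots on each array lay apart. Acaa1a, the peroxisomal thiolase, was at -0.78 ± 0.27, with -1.13 from its second probe. Its near-identical copy Acaa1b was at -0.83, and the array may not separate the pair. Crot, which exports shortened chains as carnitine esters, was at -0.54 ± 0.25 and Eci2, an isomerase for unsaturated chains, at -0.36 ± 0.12.

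The ketogenic group of the set had 1 member, Bdh1, which interconverts the 2 main ketone bodies. Bdh1 had 2082 in iron-free liver and 2502 in control liver (-0.27 ± 0.27), with overlapping spots. From the wider list of ketone body genes, Acat1, which supplies acetoacetyl-CoA, was at -0.29 ± 0.28. The mitochondrial and peroxisomal members of liver were thus below 0 at the median, as was the 1 ketogenic member, and among the members of these 3 groups the calls were the 2 peroxisomal ones. With 1 array a group, the difference between the groups was not tested.

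Among the thioesterases, which release free fatty acids from acyl-CoA, Acot2 of mitochondria had 636 in iron-free liver and 1342 in control liver (-1.08 ± 0.26). Acot12, which cleaves acetyl-CoA, had 1240 in iron-free liver and 2234 in control liver (-0.85 ± 0.28). Acot1 was not well above background in either liver. Of the uptake genes, Acsl1, the long-chain acyl-CoA synthetase, was at -0.64 ± 0.27, Fabp1 at -0.45 ± 0.27 and Slc27a2, a fatty acid transporter and synthetase, at -0.32 ± 0.38. Cd36, the fatty acid translocase, was at 0.31 ± 0.27 by its brighter probe and -0.18 by the other. Plin2 had 19084 in iron-free liver and 34216 in control liver (-0.84 ± 0.27). Ucp2, an uncoupling protein that immune cells also carry, had 352 in iron-free liver and 214 in control liver (0.72 ± 0.16), the 1 higher member whose spots lay apart. Pdk4, which shuts pyruvate out of oxidation, had no value in any comparison, and Ucp3, of muscle, was not detected on any array. Vnn1, which makes cysteamine, had only a bound in liver, at least 1.06-fold higher, with 4 of 10 control liver spots in noisy blocks, and was at -0.43 without them.

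Blood cell markers moved with the liver comparison. Of 8 erythroid markers 5 had a value and all 5 were at least 2-fold higher in iron-free liver, with a median of 2.76. Over all genes, 6.52% were called higher in liver. The summed signal of the erythroid list was 12482 in iron-free liver against 2830 in control liver. Hemgn and Rhag were not well above background on either array, nor was Epor. Hepatocyte markers had a median of 0.22 with 1 of 8 called higher and 0 lower, the list's summed signal being 929243 in iron-free liver and 789345 in control liver. All 5 macrophage markers with a probe were measured, at a median of 0.25 with 1 called higher. Of the adipocyte and skeletal muscle markers 1 each had a value, Cfd at 0.02 and Ckm as a bound, at least 2.09-fold higher, which is a call. The part of any of these cells in the members' differences was not tested, and in bulk RNA fewer cells of a type and less RNA per cell cannot be told apart.

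**Figure D2:**
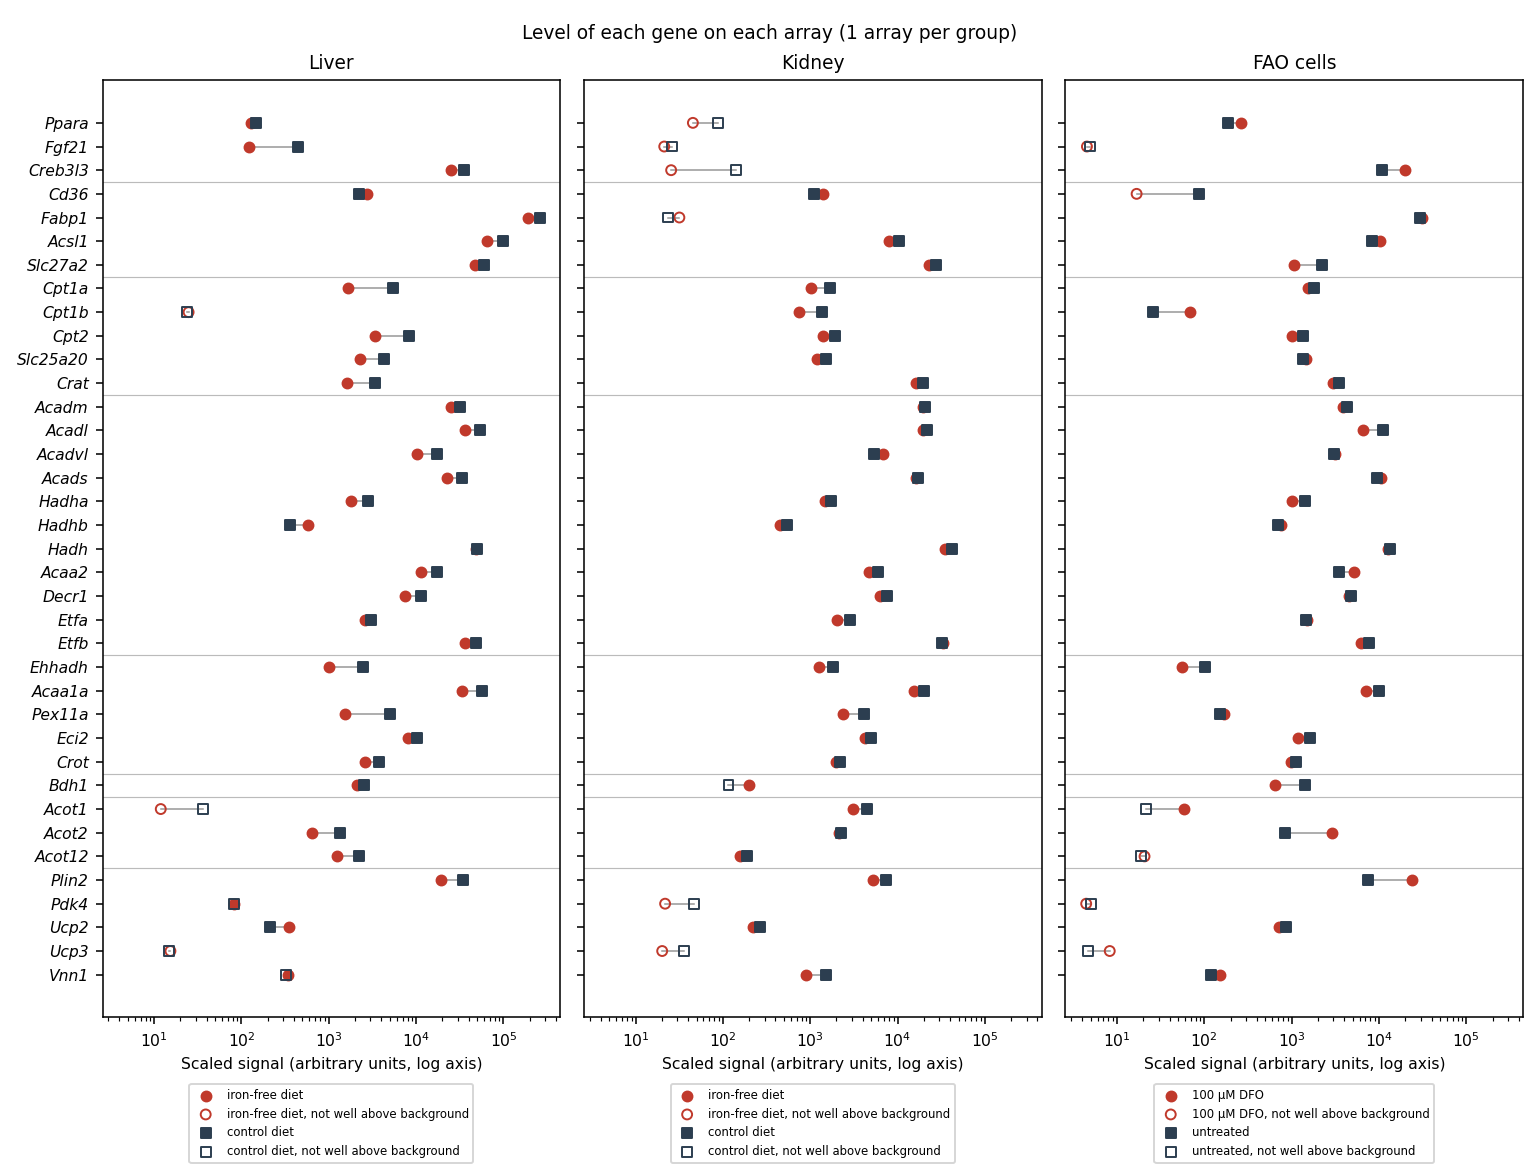
Scaled signal (arbitrary units, log axis) of each of the 37 genes on each of the 6 arrays, in panels for liver, kidney and FAO cells, ordered by role. Red circles are iron-free diet or 100 µM DFO, dark squares control diet or untreated, and open symbols are not well above background. Gaps of more than 2-fold between filled symbols include Fgf21, Pex11a, Cpt1a, Ehhadh and Cpt2 in liver and Acot2 and Plin2 in FAO cells, and for Cd36 in FAO cells the DFO symbol is open.

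In kidney, the members were also mostly lower on the iron-free diet, by smaller amounts. Of 31 with a value, 27 were below 0 (87.1%, against 55.0% of all genes), and 0 were at least 2-fold lower or higher, against 1.26% of 8951 genes called lower and 3.11% called higher. The median was -0.27, against -0.03 over all genes. It was -0.07 under scaling to each array's own detected median, where all genes were at 0.17, and over the 10 alternatives the members lay -0.30 to -0.23 from all genes.

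The lowest kidney member was Cpt1b, the muscle form of carnitine palmitoyltransferase, with 747 in iron-free kidney and 1350 in control kidney (-0.85 ± 0.21). Skeletal muscle markers were not well above background in either kidney for all 6 genes of the list. Of the 4 adipocyte markers with a probe, Adipoq had 488 in iron-free kidney and 575 in control kidney (-0.24), Cfd had 290 in iron-free kidney and 230 in control kidney (0.33), and Plin1 and Lep were not well above background. Cpt1a had 1022 in iron-free kidney and 1686 in control kidney (-0.72 ± 0.08), and its spots on the 2 arrays overlapped. Cpt2 was at -0.47 ± 0.09, and the 5 shuttle members had a median of -0.47, all below 0.

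Mitochondrial members in kidney had a median of -0.26, with 9 of 11 below 0. Acadvl had 6766 in iron-free kidney and 5419 in control kidney (0.32 ± 0.25), with overlapping spots, and Etfb was at 0.05 ± 0.20. The 5 peroxisomal members had a median of -0.37 and were all below 0. Pex11a was lowest again, with 2378 in iron-free kidney and 4084 in control kidney (-0.78 ± 0.35, 1 spot an array). Ehhadh was at -0.54 ± 0.18. Vnn1 had 903 in iron-free kidney and 1519 in control kidney (-0.75 ± 0.10).

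The ketogenic member had only a bound in kidney. Bdh1 had 199 in iron-free kidney and 116 in control kidney, where 1 of 2 spots was not well above background, giving a difference of at least 1.72-fold higher. Oxct1, which uses ketone bodies, was at 0.18 ± 0.10, the 1 gene above 0 in the wider ketone body list in kidney. The other 5 of that list's 6 genes were below 0. The list's median was -0.28, with 1 of 6 called lower, against 1.26% of all genes. Angptl4, a secreted PPAR target that inhibits lipoprotein lipase, was lower in both organs, with 558 in iron-free kidney against 1764 in control kidney (-1.66 ± 0.24), and 7934 in iron-free liver against 17939 in control liver (-1.18 ± 0.27). The erythroid list was higher in kidney too, in 5 of 5 measured genes, with a median of 0.70 and 1 called, against 3.11% of all genes. Its part in the kidney differences was not tested.

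**Figure D3:**
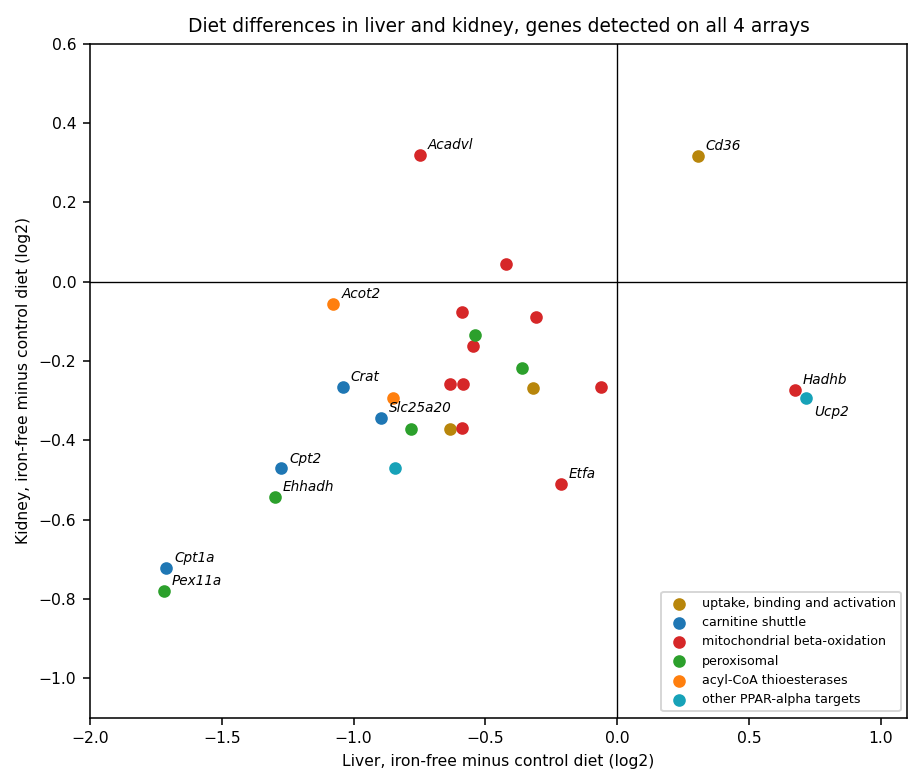
Difference of the iron-free over the control diet (log2) in liver on the x axis and kidney on the y axis, for the 27 genes of the set detected on all 4 arrays, coloured by role. Of the 27, 22 lie in the lower left corner, where both are below 0, and Hadhb, Ucp2, Acadvl and, close to the axis, Etfb lie in the corners of opposite sign. Scaled to each array's own detected median, the medians of liver and kidney would be 0.01 and -0.07.

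Across the organs, 27 members were detected on all 4 arrays, and 22 of them (81.5%) were below 0 in both, against 36.2% of 7034 genes. The difference in liver was larger in size than that in kidney for 24 of the 27. The share of all genes for which this held was not computed. Over all genes, more were called in liver (6.52% higher, 3.01% lower) than in kidney (3.11% and 1.26%). The median of the liver difference minus the kidney one was -0.39 over the 27, against -0.004 over the 7034 genes. Over these 27 genes the 2 sets of differences had a Pearson correlation of 0.48 and a Spearman correlation of 0.44, against 0.22 and 0.21 over all genes, given as a description, since genes are not independent replicates and all 4 arrays share 1 slide. Pex11a, Cpt1a and Ehhadh were the lowest 3 of the 27 in both organs.

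In FAO cells, DFO went with higher levels of some members and lower levels of others. Of 33 members with a value, 17 were below 0 and 16 above, with a median of -0.07 against 0.03 over all 10694 genes. At least 2-fold higher were 4 members (12.1%) and lower were 3 (9.09%), against 4.05% and 6.43% of all genes. All other measured members lay between -0.87 and 0.86.

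Acot1, Acot2 and Plin2 were higher with DFO, and the third thioesterase, Acot12, was not well above background on either FAO array. Acot2 had 2913 with DFO and 835 in untreated cells (1.80 ± 0.18), and its second, dimmer probe gave 1.66. Acot1, the cytosolic enzyme, had 59.2 with DFO, where all 10 spots were well above background, and 21.6 in untreated cells, where 0 of 8 used spots were, so that it was at least 2.74-fold higher. Acot1 and Acot2 are close copies, and signal shared between their probes cannot be told apart from a difference in each. Plin2 had 23775 with DFO and 7492 in untreated cells (1.67 ± 0.15), with spots of 22887 and 24698 against 7398 and 7587. Cpt1b was counted as higher, at 69.0 with DFO and 25.97 in untreated cells (1.41 ± 1.16), but 1 of its DFO spots, 28.2, lay next to the untreated spots, 25.5 and 26.4, and the other was 169. Creb3l3 had 19675 with DFO and 10832 in untreated cells (0.86 ± 0.15), short of 2-fold, and Acaa2 was at 0.57 ± 0.17.

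Of the 4 uptake genes, Cd36 and Slc27a2 were called lower with DFO, as was Bdh1, while Acsl1 was at 0.33 ± 0.15 and Fabp1 at 0.06 ± 0.15. Cd36 had 16.8 with DFO, where 1 of its 2 spots was not well above background, and 86.1 in untreated cells, which made it at least 4.27-fold lower with DFO. That bound, -2.09 on the log2 scale, was -1.03 with normexp background correction. Bdh1 had 641 with DFO and 1415 in untreated cells (-1.14 ± 0.25), with spots of 374 and 1100 against 1150 and 1741. Slc27a2 had 1065 with DFO and 2225 in untreated cells (-1.06 ± 0.38), from 1 spot an array. Acadl, at -0.75 ± 0.15, and Hadha, at -0.49 ± 0.27, each had 1 DFO spot in a noisy block, and without it they were at -0.34 and 0.53. With normexp background correction, Acadl was at -1.40, which made it a call. The direction of Hadha in FAO cells by its brighter probe was therefore set by 1 spot. Its second probe, dimmer in FAO cells, gave -0.04.

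By compartment, the mitochondrial members had a median of -0.07 with DFO, 6 of 11 below 0 and 0 called, and the peroxisomal ones -0.43, with 4 of 5 below 0 and 0 called. The shuttle was at -0.23, with Cpt1a at -0.23 ± 0.09 and Cpt2 at -0.43 ± 0.12. Ppara had 264 with DFO and 189 in untreated cells (0.48 ± 0.52), and Fgf21 was not well above background in either. In the wider target list, Angptl4 had 894 with DFO and 99.1 in untreated cells (3.17 ± 0.46), the opposite sign to that in liver and kidney.

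The rest of the pathway, given from wider lists, was read in the same way. Of 15 other mitochondrial beta-oxidation genes measured in liver, all 15 were below 0 with a median of -0.36, and 1 was called lower, Acsm5, a medium-chain synthetase. Of 17 other peroxisomal lipid genes in liver, 14 were below 0, with a median of -0.30, and 2 were called lower: Acot4 at -1.18 and Abcd3, a peroxisomal acyl-CoA carrier, at -1.001. In kidney, 10 of 16 other mitochondrial genes (62.5%, median -0.12) and 10 of 14 other peroxisomal genes (71.4%, median -0.18) were below 0, against 55.0% of all genes. There 0 were called lower and 1 higher, the peroxisomal Amacr, a bound. In FAO cells, 2 of 13 and 1 of 15 were called lower and 0 higher, against 6.43% and 4.05% of all genes. Of 24 other PPAR-alpha targets in liver, 6 were called lower (25%) and 2 higher (8.33%), with a median of -0.33, against 3.01% and 6.52% of all genes.

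Those 6 were Cyp4a3 (-1.42), Angptl4 (-1.18), Cyp4a1 (-1.16), Gpd1 (-1.14), Cidea (-1.13) and Me1 (-1.11). Cyp4a1 and Cyp4a3 are fatty acid omega-hydroxylases, from a family of close copies whose probes may share signal. The 2 higher were both bounds, Acsl3 and the lipase gene Lpl. Among 16 measured partners and coregulators of PPARs in liver, 3 were called lower (18.75%, against 3.01% of all genes). These were Pparg, Nr1h4 and Hnf4a, and Rxra was at -0.43 ± 0.35. Hnf4a and Pparg were dim, with spot SEs of 0.58 and 0.50. In FAO cells, Gpd1 (-1.56 ± 0.25), Cyp4a1 (-1.12 ± 0.53), Cyp4a8 (-1.06) and Mgll, a bound, were called lower on the target list and Angptl4 higher, which is 4 and 1 of 21 measured genes, against 6.43% and 4.05% of all genes, and 0 of 16 partners were called. Ppargc1a, the coactivator of mitochondrial genes, had a value in kidney alone, -0.27 ± 0.34.

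Organs differed in which members they used. Relative to control liver, control kidney was at least 2-fold lower in 16 of 35 members (45.7%) and higher in 4, against 14.8% and 26.6% of genes. Fabp1 was not well above background in control kidney, against 259016 in control liver, at least 2466-fold lower, and Creb3l3 was at least 249-fold lower. Acot1 had 4467 in control kidney and was not detected in control liver, at least 99.2-fold higher, and Cpt1b had 1350 and was at least 29.98-fold higher. Crat had 19439 in control kidney and 3342 in control liver (2.54 ± 0.28). Untreated FAO cells, set against control liver, were at least 2-fold lower in 25 of 32 members (78.1%) and higher in 1, against 27.8% and 27.7% of genes. That 1 was Ucp2, with 865 in untreated FAO cells and 214 in control liver. Pex11a had 153 in untreated FAO cells, 33.2-fold lower than in control liver, and Ehhadh had 102, 24.2-fold lower. Culture, cell line and organ differ together here and cannot be told apart.

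**Figure D4:**
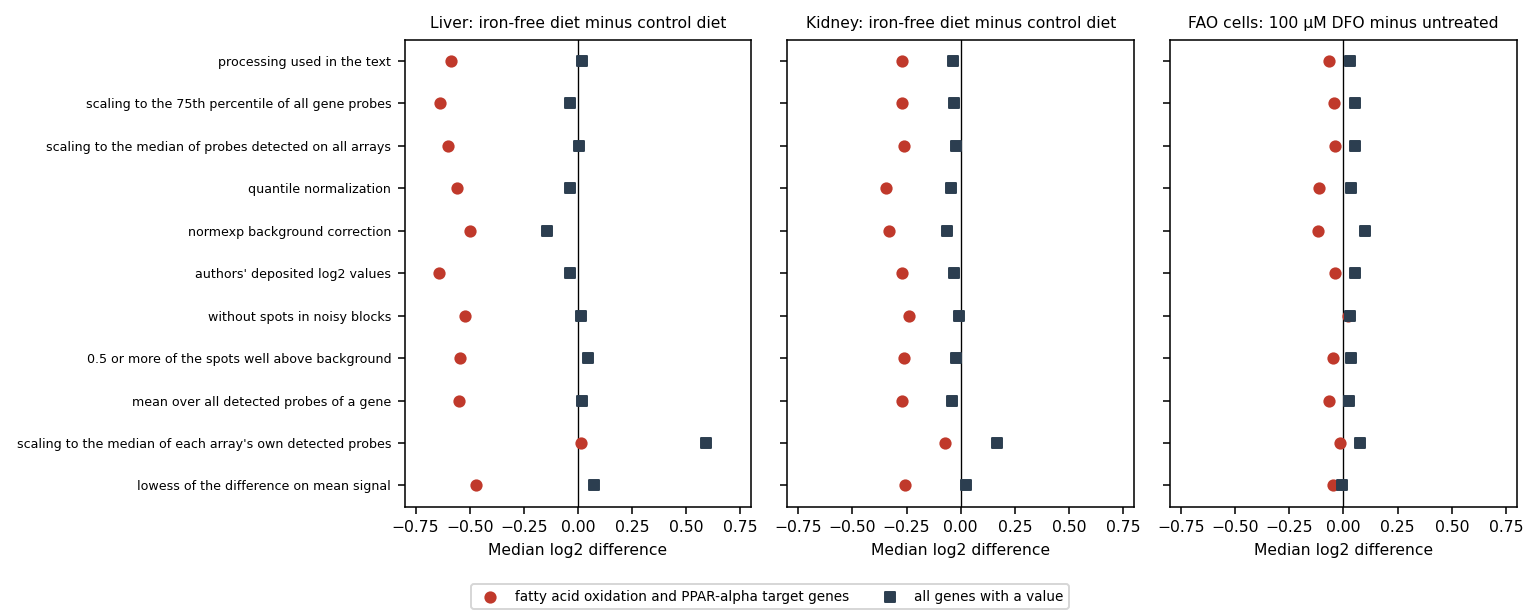
Median log2 difference (x axis) of the set (red circles) and of all genes with a value (dark squares) under the processing used in the text and 10 alternatives (rows), in liver, kidney and FAO cells. In liver the set lies at -0.60 to -0.36 from all genes over the alternatives, and with each array's own detected median both medians shift upward, to 0.01 and 0.59.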

How the data were processed

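The 6 samples are 1 array each, with groups taken from the sample titles. Per the file headers, scans of array design 028279 were quantified by Agilent Feature Extraction 10.7.3.1. The deposited intensity used, gProcessedSignal, is background-subtracted and linear, per the file headers. The deposited log2 values of the authors' table are log2 of that table's intensities minus a constant for each array (largest departure 1.29e-06). Whether that constant is the array's 75th percentile was not checked. These log2 values served as an alternative and for choosing probes. The authors' aligner or probe mapping is not given in the sources used here.

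Spots flagged as outliers (680 to 1215 of 58717 per array) were left out, log2 intensity was averaged over the spots of each probe, and each array was scaled to its 75th percentile over 9091 probes detected everywhere. Detection on an array required every used spot of the probe to be well above background. List medians take bounds at their bound. Of the members, 25 were detected on all 6 arrays, 10 were read from 10 spots, 25 from 2 and 2 from 1, and 37 of 37 gene IDs kept their symbol in the RefSeq table of GRCr8. The spot SE was pooled in 20 signal bins per array. Noisy blocks are squares of 16 by 16 spots whose repeated spots departed by more than 0.4 (log2) at the median. The number of arrays limits the precision: nothing was tested, and the pooling of RNA hides the spread between animals.

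The members and all lists were chosen with earlier results of these data known, so that their pattern is a description. Text names follow a rule that takes all members, and of the wider lists the genes called in a comparison and a few fixed enzymes, partners and markers, some of which are not reported here. Alternatives covered scaling, quantile normalization, normexp background correction (limma 3.58.1, R 4.3.3, on gMedianSignal because gMeanSignal is not among the columns used), the authors' log2 values, noisy blocks, dim probes and probes per gene, and 2 scalings were added after seeing the data. Python 3.11.15 with numpy 2.4.6, pandas 2.3.3 and statsmodels 0.14.6 was used, and the steps were tested on simulated data.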

Additional observations from a re-analysis of the deposited data

Results flagged for a closer look

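For 3 genes of the set, the diet difference had opposite signs in liver and kidney and exceeded its spot SE in both organs. The difference in liver minus that in kidney was 1.01 for Ucp2, at 0.72 in liver and -0.29 in kidney. For Hadhb it was 0.95, at 0.67 in liver and -0.27 in kidney. For Acadvl it was -1.07, at -0.75 in liver and 0.32 in kidney. With 1 array per group, these differences between the organs were not tested. Spots of the 2 arrays lay apart in liver for Ucp2 and Acadvl and overlapped in the other 4 cases.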

How the results depend on the processing

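Scaling each array to the median of its own detected probes, added after seeing the data, moved the median of the set most in liver and least in FAO cells. In FAO cells that median was -0.017 under this scaling and -0.066 under the processing used in the text. In liver this scaling gave 2 of 34 members called higher and 3 lower, beside 2120 and 78 of 10378 genes. The liver median was 0.013 over the set, beside 0.59 for all genes. Medians by role were 0.087 for regulators and hormone, 0.19 for uptake, -0.58 for the carnitine shuttle, 0.032 for mitochondrial, -0.20 for peroxisomal and 0.619 for other target genes. In kidney this scaling gave a median of -0.071 over the set, beside 0.17 for all genes. By role it gave -0.066 for uptake, -0.27 for the shuttle, -0.056 for mitochondrial, -0.17 for peroxisomal, -0.091 for thioesterases and -0.27 for other targets. Probes well above background were 47.7% in iron-free liver and 40.1% in control liver, and 40.5% in iron-free kidney and 37.7% in control kidney. This scaling therefore took its medians over probe sets that differed between the arrays of a comparison. The part of this in the shift was not tested. With normexp, the liver regulators were at -0.21 and the peroxisomal genes in FAO cells at -0.20. Without noisy blocks, the liver regulators were at -1.08, since Ppara lost its value, and the other liver targets at -0.21. Of single-gene values under the 10 alternatives, 55 of 328 in liver, 20 of 310 in kidney and 24 of 330 in FAO cells moved by more than the spot SE, and 0 calls changed sign. Hadhb and Ucp2 were called higher in liver under the own-median scaling alone. Cpt1a, Pex11a and Fgf21 were called lower in liver under 10 of 10, Cpt2 and Ehhadh under 9, Acot2 under 8 and Crat under 6. In FAO cells the calls were made under 10 of 10 alternatives, except Acot1, under 9, and Acadl was called lower under normexp alone. Slide could not be a block, since 1 slide held all arrays, and leaving out a replicate was not possible. No paired analysis was possible because each group has 1 array. Signal over background limits Fgf21, Pdk4, Ucp3, Acot1 and Cpt1b, among others, which had no value in 1 or more comparisons.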
